A study of Mus musculus with 26 samples.

Results

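The ETS factors of blood are described here through the histone mark H3K4me3 at 8 of their genes: Spi1, Spib, Spic, Ets1, Fli1, Erg, Etv6 and Elf1, out of 21887 protein-coding genes placed on the mouse assembly GRCm38.p6 (mm10). The genes were chosen by name, and every H3K4me3 peak that overlaps a gene's annotated span or the 5 kb on either side was taken. The series follows mouse progenitors with both copies of Ebf1 inactivated (Ebf1-/-), which cannot enter the B lineage without the transcription factor EBF1. Early-B cells were made from these progenitors by introducing the vector MigR1-EBF1.ER, which carries an EBF1 fusion, and by growing them on OP9 stroma for 2 days with the cytokines IL-7, SCF and FLT3-L, together with 4-O-Hydroxy-tamoxifen. The comparison is thus between Early-B cells, still Ebf1-/- at their own locus, and Ebf1-/- progenitors, whose own culture is not given in the labels for this assay. Each group has 2 immunoprecipitated and 2 input DNA samples in the labels but 1 deposited peak list. No replicate spread could therefore be computed, no test between the groups was made, and the read depth behind a peak is unknown. The other assays of the series were not analysed here.

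All ETS factors bind DNA through the ETS domain, which reads a short core, GGAA, and they are told apart mainly by flanking bases, partners and the cells that make them. Spi1 encodes PU.1, whose amount steers progenitors between myeloid and B cell fates and which acts upstream of Ebf1. Ets1, Fli1 and Erg belong to a neighbouring branch with roles in lymphocytes, megakaryocytes and stem cells, Etv6 encodes a repressor needed for blood formation in the bone marrow, and Elf1 encodes an activator found in lymphocytes. H3K4me3 is laid down around the start sites of active or poised genes, so that a gene with several marked places may use several promoters.

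Start sites were available for 5 of the 8 genes, and 5 windows are shown: the Spib and innermost Erg starts, which lay inside an Early-B peak only, the outermost Erg start for contrast with the innermost, and both Elf1 starts, which lay inside peaks of both lists. RefSeq promoter windows of GRCm38.p6 give 8 starts for Spib, Spic, Erg, Etv6 and Elf1. Each window runs 5′ to 3′ on the gene's strand for 300 bases, 250 before the start and 50 from it onward, and capitals mark the ETS core on either strand (GGAA or TTCC). The Spib window is chr7:44532022-44532321 on the minus strand. The Erg windows are chr16:95586544-95586843 for the outermost and chr16:95459299-95459598 for the innermost start, both on the minus strand. The Elf1 windows are chr14:79480944-79481243 for the outer and chr14:79515424-79515723 for the inner start, both on the plus strand.
Spib start: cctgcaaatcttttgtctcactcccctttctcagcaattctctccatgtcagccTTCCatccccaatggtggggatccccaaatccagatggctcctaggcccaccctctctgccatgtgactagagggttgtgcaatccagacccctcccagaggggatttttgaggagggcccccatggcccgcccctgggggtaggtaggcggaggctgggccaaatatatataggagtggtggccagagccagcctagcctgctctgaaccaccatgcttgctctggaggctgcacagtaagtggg
Erg outermost start: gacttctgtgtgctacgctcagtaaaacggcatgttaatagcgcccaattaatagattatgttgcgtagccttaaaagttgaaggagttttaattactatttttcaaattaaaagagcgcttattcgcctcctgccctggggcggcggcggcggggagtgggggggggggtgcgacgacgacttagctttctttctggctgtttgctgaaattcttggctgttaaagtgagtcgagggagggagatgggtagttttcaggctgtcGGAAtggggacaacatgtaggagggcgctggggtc
Erg innermost start: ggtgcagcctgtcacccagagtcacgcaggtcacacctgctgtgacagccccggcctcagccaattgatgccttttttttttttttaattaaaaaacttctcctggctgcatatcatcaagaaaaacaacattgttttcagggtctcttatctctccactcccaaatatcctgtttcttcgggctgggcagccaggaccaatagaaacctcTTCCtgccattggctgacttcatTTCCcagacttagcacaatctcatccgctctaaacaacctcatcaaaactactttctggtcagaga
Elf1 outer start: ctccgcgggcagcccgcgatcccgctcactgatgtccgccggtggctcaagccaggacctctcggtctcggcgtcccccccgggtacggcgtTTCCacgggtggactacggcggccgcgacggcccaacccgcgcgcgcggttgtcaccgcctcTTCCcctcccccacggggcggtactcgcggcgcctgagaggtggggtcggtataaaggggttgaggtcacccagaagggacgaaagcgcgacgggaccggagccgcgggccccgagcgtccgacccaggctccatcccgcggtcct
Elf1 inner start: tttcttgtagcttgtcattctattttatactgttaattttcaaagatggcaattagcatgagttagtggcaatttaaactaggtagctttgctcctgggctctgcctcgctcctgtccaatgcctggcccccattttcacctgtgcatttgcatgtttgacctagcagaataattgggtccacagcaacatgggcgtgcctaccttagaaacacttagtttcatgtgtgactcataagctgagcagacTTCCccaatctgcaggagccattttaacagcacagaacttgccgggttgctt

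The authors' values for a peak are its pileup, the height of stacked fragments, and its −log10 p and q against background, which rank peaks within a list and are no measure of change between lists. In such bulk chromatin, fewer cells with the mark and less mark per cell cannot be told apart. Across the 8 genes, the Early-B list held 41 peaks that covered 116 kb and the progenitor list 36 peaks that covered 95.2 kb. Peaks that met none of the other list by even 1 bp numbered 17 in Early-B cells (41.5%, against 38.5% of all Early-B peaks in the windows of protein-coding genes). In progenitors they numbered 13 (36.1%, against 21.2%). Of the 17 Early-B-only peaks, 16 lay in Erg and Ets1 and the other at Spib. The 13 progenitor-only peaks were spread over 6 genes. Of the 13, 12 had an authors' q above 0.05, as did 6 of the 17 Early-B-only ones. With the longer Early-B list shortened to the length of the progenitor list, 11 Early-B and 19 progenitor peaks were private. No peak with a −log10 p of 50 or more was private: 8 Early-B and 7 progenitor peaks reached that level and all met the other list. Over the genome 1.89% of such Early-B peaks and 0.0101% of such progenitor peaks were private. The peak map and the plot of width against −log10 p show the peaks that were met and those that were not.

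**Figure D1:**
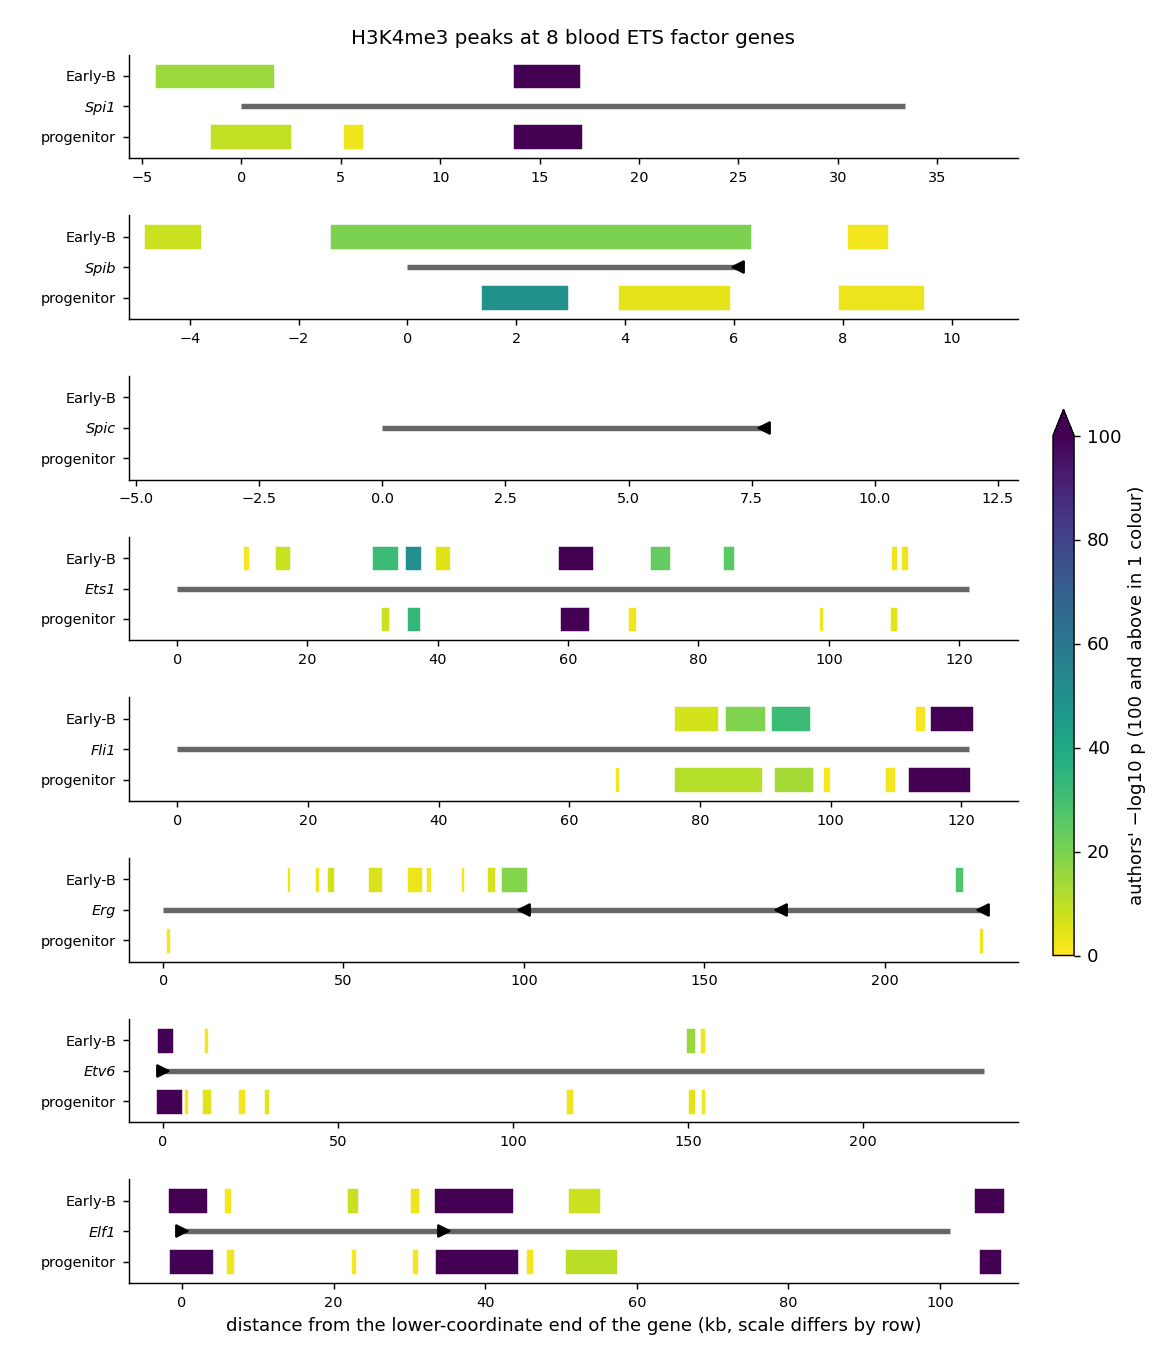
Peaks at each gene, Early-B above and progenitor below the grey gene span; x is the distance in kb from the lower-coordinate end of the gene, arrowheads mark listed start sites and their direction, and colour gives the authors' −log10 p. Erg shows 10 Early-B and 2 progenitor peaks that never overlap, Elf1 has strongly marked places at both listed starts in both lists, and Spic has no peak.

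**Figure D2:**
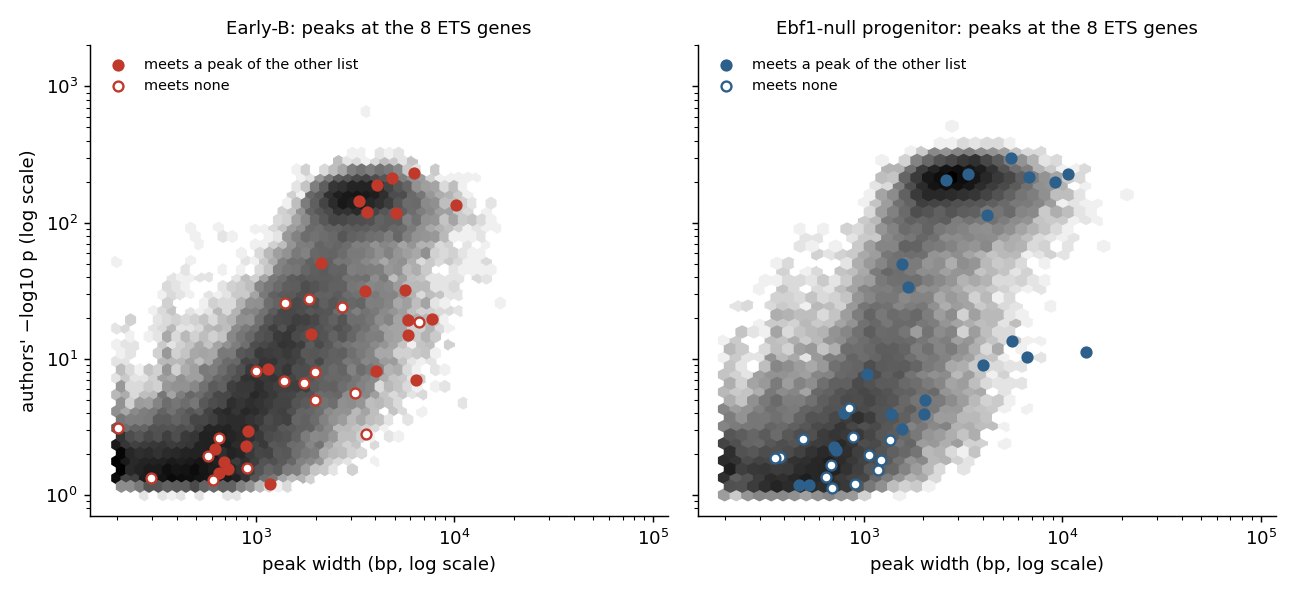
Peak width in bp against the authors' −log10 p, both on log scales, for Early-B (left) and progenitor peaks (right); grey hexagons count all peaks of the list, filled points are peaks at the 8 genes that meet the other list and open points those that do not. The open points end at a −log10 p of 27.5 in Early-B cells and 4.36 in progenitors.

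With a window of 1 kb around each listed start, or around both gene ends where none is listed, 6 of the 8 genes had a start-site peak in both lists, against 54.1% of protein-coding genes. Spic and Ets1 had one in neither, against 38.6%. Ets1 has no listed start, so only its gene ends were searched. Its inner peaks, with a −log10 p of up to 118 in Early-B cells and 113 in progenitors, were not counted. With a −log10 p of at least 10 asked of both lists, 3 genes had a start-site peak in both. Spi1, Spib and Erg then had one in Early-B cells only. Spi1 has no listed start, and its gene-end peak had a −log10 p of 15.1 in Early-B cells and 9.08 in progenitors. Its strongest peak, inside the gene, passed this threshold in both lists (143 in Early-B cells and 228 in progenitors). For Erg the count of 6 hides a difference, because the Early-B peak lay at the innermost start and the progenitor peak at the outermost. Of the 8 listed starts, 3 lay inside a peak of both lists (Etv6 and both Elf1 starts, against 51.0% of 21263 starts). Another 2, those of Spib and the innermost of Erg, lay inside an Early-B peak only (against 4.56%). The remaining 3, at Spic and at the other Erg starts, lay inside neither (against 42.4%).

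Spi1, the PU.1 gene on chromosome 2 (91082374 to 91115759), had its strongest mark not at an end of its annotated span but inside it. That peak ran from 91096064 to 91099365 in Early-B cells, with a pileup of 134 and a −log10 p of 143. In progenitors it ran from 91096105 to 91099458, with a pileup of 191 and a −log10 p of 228. Its edges lay 41 and 93 bp apart between the lists. Because Spi1 has no listed start, this peak could not be placed relative to one. The peak began 13.7 kb from the lower-coordinate end in both. A weaker, wide peak sat across that end: 5863 bp (−log10 p 15.1) in Early-B cells and 3967 bp (9.08) in progenitors. These peaks were offset, the Early-B one reaching 2778 bp further away from the gene and the progenitor one 882 bp further into it. A progenitor-only peak of 889 bp lay between these places with a −log10 p of 2.67. In all, 9165 bp were covered in Early-B cells and 8210 bp in progenitors.

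Spib, on chromosome 7 (44525995 to 44532087, minus strand), encodes the close relative of PU.1 that serves B cells and plasmacytoid dendritic cells. In Early-B cells a peak of 7708 bp, from 44524587 to 44532294, lay over the whole gene and its start. It was wider than 98.9% of Early-B peaks. Its pileup of 37.8 was higher than in 70.1% of them, and its −log10 p of 19.7 higher than in 70.9%. In progenitors the mark came as separate peaks inside that stretch. The stronger, 1568 bp wide with a pileup of 66.0 and a −log10 p of 49.9, began 3139 bp downstream of the start, within the gene. The other, of 2011 bp and a −log10 p of 3.93, stopped 176 bp short of the start. Peaks of both cell types thus lay inside the gene, and that of Early-B cells extended over the start shown in the Spib window. The Early-B domain and the weaker progenitor peak also lay within 1 kb of an end of the gene Pold1, and the Early-B domain within 1 kb of an end of Mybpc2, so they cannot be assigned to Spib alone. Peaks covered 58.6% of the gene and its flanks in Early-B cells and 31.9% in progenitors. An Early-B-only peak of 1003 bp lay in the flank past the 3′ end with a −log10 p of 8.17. In the flank upstream of the start, a peak of 727 bp in Early-B cells (1.57) overlapped one of 1552 bp in progenitors (3.05).

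Spic, on chromosome 10 (88675269 to 88683023), encodes the third member of the PU.1 branch, known for its part in splenic macrophages. It had no peak in either list within its span or the 5 kb around it, as did 25.3% of protein-coding genes. The nearest peak lay 47096 bp from its start in Early-B cells and 25868 bp in progenitors. The PU.1 branch thus held a gene with a strong peak inside its annotated span, one with a domain that differed in extent, and one with no peak. For the first, Spi1, no start is listed, so that peak may or may not lie at a start.

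Ets1, on chromosome 9 (32636241 to 32757820), encodes a factor of T, NK and B lymphocytes, and it held 10 Early-B peaks against 6 in progenitors. All 16 lay inside the gene, more than 1 kb from both ends, which is why it has no start-site peak by the rule above. With no start listed for Ets1, none of these peaks could be placed relative to one. The strongest ran from 32694833 to 32699941 in Early-B cells, 5109 bp wide with a pileup of 114 and a −log10 p of 118. In progenitors it ran from 32695138 to 32699299, 4162 bp wide with a pileup of 112 and a −log10 p of 113. The edges of this central peak, near the middle of the gene, lay 305 and 642 bp apart, the Early-B peak extending past the progenitor one on both sides. Another place at 35.1 kb from the lower-coordinate end was 2119 bp wide in Early-B cells (−log10 p 50.7) and 1673 bp in progenitors (34.0). Next to it, a peak of 3561 bp in Early-B cells (−log10 p 31.7) enclosed one of 1043 bp in progenitors (7.82).

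The Early-B list added 6 peaks in Ets1 that met no progenitor peak, a number reached by 9.30% of the 2429 protein-coding genes that span at least 100 kb. The strongest of them, 1400 bp wide, began 83.9 kb from the lower-coordinate end with a pileup of 44.7 and a −log10 p of 25.7. Another, of 2729 bp, began at 72.7 kb with a pileup of 43.6 and a −log10 p of 23.9. Both lie beyond the central peak, toward the higher-coordinate end. The 2 progenitor-only peaks had −log10 p values of 1.98 and 1.91 and an authors' q above 0.05. Of the 6 Early-B-only peaks, 4 had an authors' q of 0.05 or less. Peaks covered 20778 bp of Ets1 and its flanks in Early-B cells and 9115 bp in progenitors. Of the progenitor bases 82.3% were also covered in Early-B cells, and of the Early-B bases 36.1% were covered in progenitors. The Early-B peaks therefore took in most of the progenitor bases and added others.

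Fli1, the neighbour of Ets1 on chromosome 9 (32422204 to 32543432) and a factor of stem cells and megakaryocytes, had its strongest peak at its higher-coordinate end. In Early-B cells it ran from 32537566 to 32543809 with a pileup of 186 and a −log10 p of 231. In progenitors it ran from 32534166 to 32543376 with a pileup of 161 and a −log10 p of 199. The outer edges lay 433 bp apart, whereas the progenitor peak reached 3.40 kb further into the gene. The Early-B list instead had a separate peak of 1176 bp there with a −log10 p of 1.20. Inside the gene, a progenitor peak of 13160 bp (−log10 p 11.2), wider than 99.9% of progenitor peaks, matched a pair of Early-B peaks of 6393 bp (6.97) and 5825 bp (19.3). A further place beside it was 5641 bp wide in Early-B cells (31.8) and 5578 bp in progenitors (13.6). Every Early-B peak at Fli1 met a progenitor peak, and the 3 progenitor-only peaks had −log10 p values of 1.87 or less. Of the Early-B bases at Fli1, 94.3% were covered in progenitors too, against the 36.1% at Ets1, which lies 92.8 kb away. In the stretch between the windows of these genes lay 4 Early-B peaks with a highest −log10 p of 27.3 and 3 progenitor peaks with a highest of 5.46.

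Among the 8 genes, Erg had the highest ratio of bases covered and shared no base between the lists. Located on chromosome 16 (95359169 to 95586600, minus strand), it encodes a factor known for keeping blood stem cells. The Early-B list held 10 peaks covering 20379 bp and the progenitor list 2 peaks covering 1143 bp. Of protein-coding genes that span at least 100 kb, 2.39% had at least as many Early-B-only peaks, and 3.05% had peaks in each list with no shared base. The ratio of bases covered, 17.8, was higher than at 99.6% of the 14107 genes covered in both lists. It rests on a small progenitor extent.

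Of the 10 Early-B peaks of Erg, 1 lay nearer the outermost start, and 9 separate peaks lay at or downstream of the innermost one. The strongest, from 95578871 to 95580725, began 5.87 kb downstream of the outermost start with a width of 1855 bp, a pileup of 47.4 and a −log10 p of 27.5. The widest, from 95453125 to 95459746, covered the innermost listed start, which lies 127 kb downstream of the outermost one. It was 6622 bp wide with a pileup of 39.0 and a −log10 p of 18.5. Wider than 98.1% of Early-B peaks, it began shortly upstream of that start and reached 6.22 kb downstream of it. The other 8 peaks followed downstream of it, up to 65.5 kb from the innermost start, with −log10 p values from 1.34 to 6.92, the highest for a peak of 1396 bp. No Early-B peak lay between the strongest peak and the widest one, and the middle listed start was 48506 bp from the nearest Early-B peak. An Early-B-only start of this kind was found at 9.96% of the 2761 protein-coding genes with at least 2 listed starts.

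The progenitor peaks of Erg were both weak. One of 497 bp ended within the gene 468 bp short of the outermost start with a pileup of 14.9 and a −log10 p of 2.59. The other, of 646 bp near the 3′ end, had a −log10 p of 1.35, and both had an authors' q above 0.05. At that threshold, 6 Early-B peaks and no progenitor peak were left at Erg. The Early-B group was grown on OP9 stroma, and 6 of 7 stromal marker genes (collagen, PDGF receptor and matrix genes) had more bases covered in Early-B cells, against 69.7% of all protein-coding genes with a peak. Over the 7 genes these came to 27191 bp in Early-B cells and 11750 bp in progenitors. Each of the 7 had a peak in Early-B cells, whereas Col3a1 and Sparc had none in progenitors, and the start-site −log10 p values of the 7 in Early-B cells ran from 1.25 to 8.66. The strongest Early-B peak in their windows, at Sparc, reached a −log10 p of 35.0. The part of stromal cells in the Erg and Ets1 peaks was not tested.

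**Figure D3:**
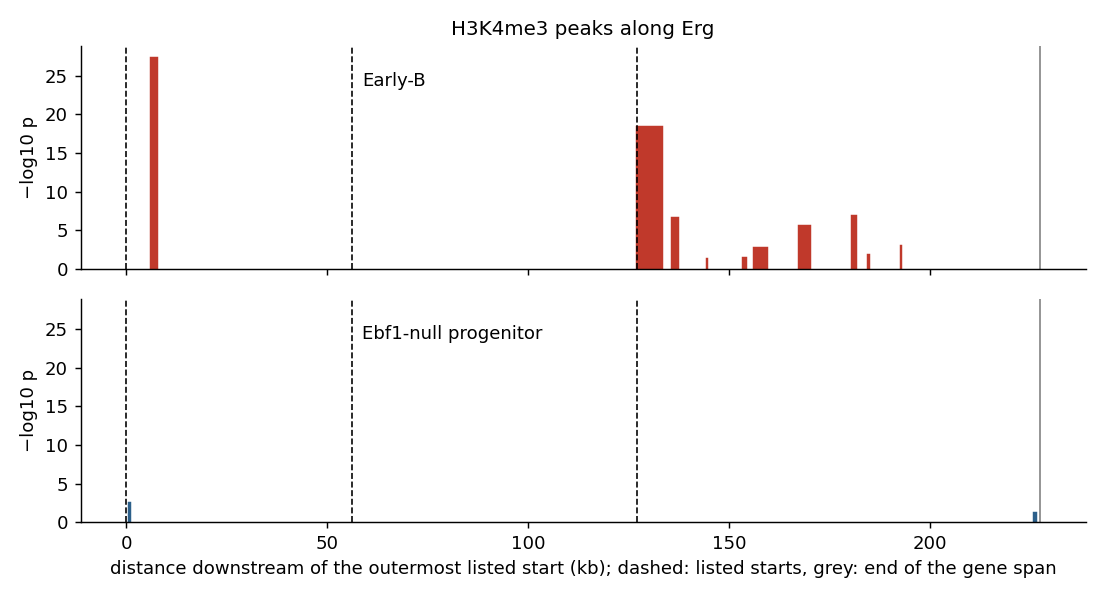
The authors' −log10 p of each peak along Erg in Early-B cells (top) and Ebf1-null progenitors (bottom), against the distance in kb downstream of the outermost listed start; bar width is peak width, dashed lines are the listed starts and the grey line is the end of the gene span. In Early-B cells 9 peaks lie at and downstream of the innermost start, where progenitors have 1 weak peak near the end of the gene.

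Etv6, on chromosome 6 (134035700 to 134270158, plus strand), encodes the repressor of the group and had fewer bases covered in Early-B cells. Its start lay inside a strong peak in both lists: 4096 bp wide with a pileup of 165 and a −log10 p of 189 in Early-B cells, and 6810 bp wide with a pileup of 178 and a −log10 p of 216 in progenitors. The edge upstream of the start differed by 178 bp, while the progenitor peak went on 2536 bp further into the gene. The peak also lay within 1 kb of an end of the predicted gene Gm46977. Of 8 progenitor peaks 4 met no Early-B peak, a number reached by 6.34% of protein-coding genes of at least 100 kb. The strongest had a pileup of 18.2 and a −log10 p of 4.36, and the other 3 had an authors' q above 0.05. All 4 Early-B peaks overlapped the progenitor list. About 150 kb downstream of the start, a peak of 1907 bp in Early-B cells (−log10 p 15.3) overlapped one of 1372 bp in progenitors (3.95). Just beyond, an Early-B peak of 890 bp (2.32) overlapped a progenitor one of 710 bp (2.24). Closer to the start, 11.4 kb downstream of it in progenitors, a peak of 696 bp in Early-B cells (1.74) lay within one of 2039 bp in progenitors (5.03). Etv6 had 7589 bp covered in Early-B cells and 15055 bp in progenitors, a ratio of 0.504, and 2.79% of genes had a lower one.

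Elf1, on chromosome 14 (79481174 to 79582491, plus strand), encodes an activator of lymphocyte genes and was strongly marked at both of its listed starts in both lists. At the outer start the peak was 4822 bp wide in Early-B cells, with a pileup of 182 and a −log10 p of 211. In progenitors it was 5483 bp wide with a pileup of 232 and a −log10 p of 300.2. An end of Wbp4 lies within 1 kb of this peak, so it cannot be assigned to Elf1 alone. The inner start lies 34480 bp downstream and lay in a peak of 10173 bp in Early-B cells (pileup 132, −log10 p 134) and 10656 bp in progenitors (pileup 197, −log10 p 229). These exceed 99.6% of Early-B and 99.7% of progenitor peaks in width, and most of each lies downstream of the start. Of the 2761 genes with at least 2 listed starts, 50.1% had 2 or more inside a peak of both lists. A peak in the 3′ flank, 3635 bp wide in Early-B cells (−log10 p 119) and 2593 bp in progenitors (206), lies within 1 kb of an end of Sugt1. Between the starts, a peak of 1158 bp in Early-B cells (8.49) enclosed one of 474 bp in progenitors (1.20). Downstream of the inner start, a peak of 4049 bp in Early-B cells (8.20) lay within one of 6603 bp in progenitors (10.3). Each of the 7 Early-B peaks overlapped the progenitor list, whose 1 private peak had a −log10 p of 1.67. Covered bases came to 23479 in Early-B cells and 26146 in progenitors.

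Set side by side, the genes did not share 1 direction. Peaks covered more bases in Early-B cells than in progenitors at Spi1, Spib, Ets1 and Erg and fewer at Fli1, Etv6 and Elf1. That is 4 of the 7 genes with a peak, against 69.7% of all protein-coding genes with one. The ratio of bases covered had a median of 1.12 over the 7 genes, against 1.13 over all 14107 genes covered in both lists. Etv6 and Erg stood at the far ends of that distribution, and Spi1 near its middle. Among peaks that pair 1 to 1 between the lists, the Early-B peak was the wider in 10 of 19 at these genes, against 62.9% of 22623 pairs. Early-B-only peaks occurred at 3 of the 7 genes (against 41.0% of genes with a peak) and progenitor-only peaks at 6 (against 22.1%). The progenitor-only peaks were weak, with a −log10 p of at most 4.36. Of these 13, 12 had an authors' q above 0.05, as did 6 of the 17 Early-B-only peaks. Long genes more often held a private peak, and 5 of the members span at least 100 kb. Of these 5, 2 had an Early-B-only peak, against 78.6% of genes that long with a peak, and 5 a progenitor-only one, against 41.6%. Inner peaks, more than 1 kb from both gene ends, reached a −log10 p of 50 in both lists at 3 of the 8 genes. These 3, Spi1, Ets1 and Elf1, compare with 3.59% of protein-coding genes. That share is over genes of every length, and no share among long genes was computed. The inner peak of Elf1 lies at a listed start. Spi1 and Ets1 have no listed start, so whether their inner peaks lie at a start could not be told.

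**Figure D4:**
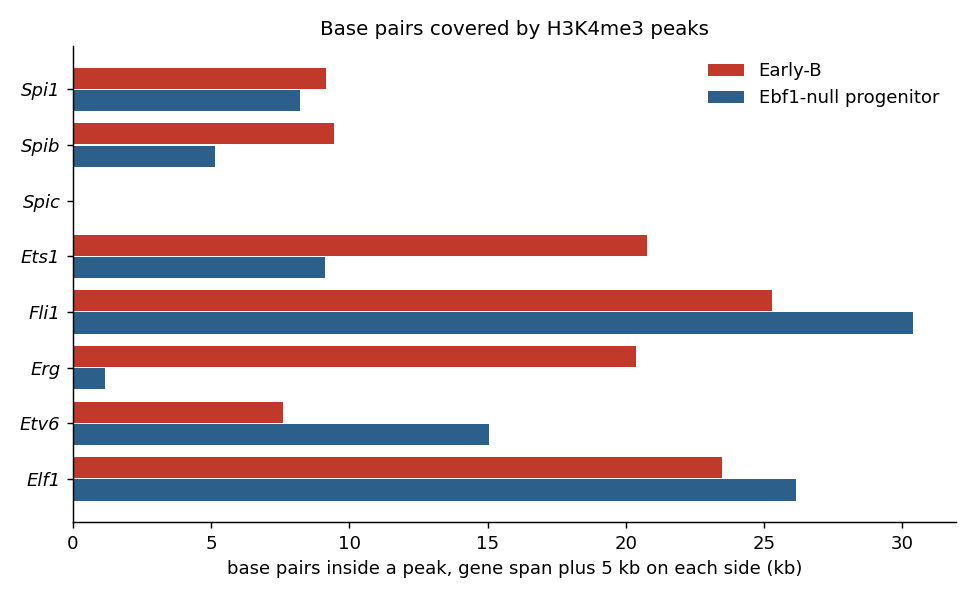
Base pairs inside a peak in the gene span plus 5 kb on each side, in kb, for Early-B cells (upper bar of each pair) and Ebf1-null progenitors (lower bar); there is 1 list per group and no error bar. Erg has 20379 bp in Early-B cells against 1143 bp in progenitors, and Etv6 7589 bp in Early-B cells against 15055 bp in progenitors.

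**Figure D5:**
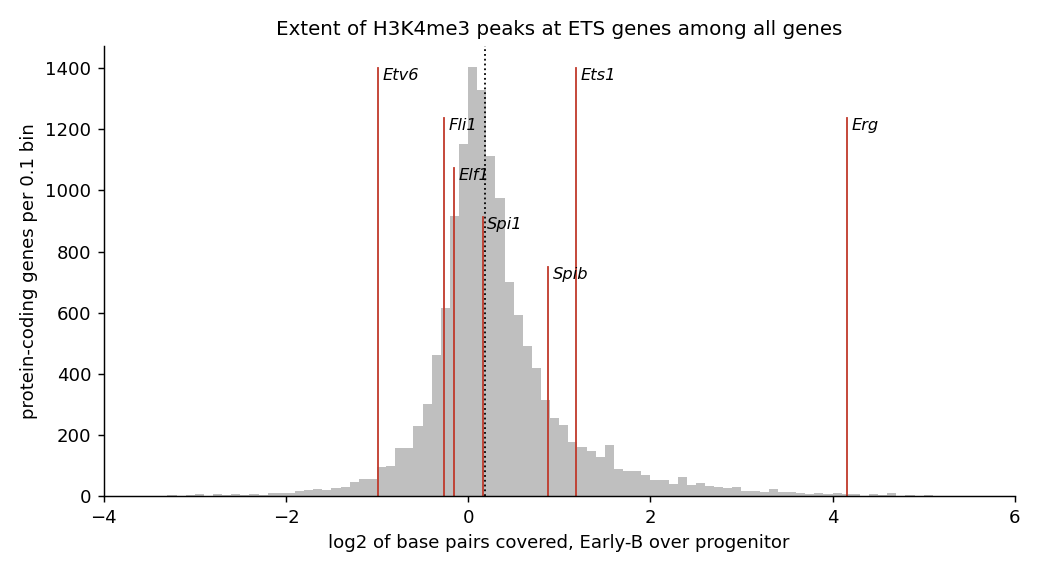
The log2 ratio of base pairs covered in Early-B cells over progenitors for the 14107 protein-coding genes covered in both lists (grey bars, genes per bin of 0.1), with the ETS genes as red lines whose heights carry no value and the median as a dotted line. Erg lies to the far right, Etv6 to the left, and Spi1 beside the median; Spic has no peak and is not shown.

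Base composition varied among the listed starts. The outer Elf1 start, inside a peak of both lists, has a GC content of 73.0% and an observed over expected CpG ratio of 1.08. Etv6, also in both, has 57.3% and 0.693. Spic, with no peak, has a CpG ratio of 0.203. The inner Elf1 start is an exception, since it lay in a strong peak of both lists with a GC content of 44.7% and a CpG ratio of 0.202. Over all listed starts of protein-coding genes, the median CpG ratio was 0.795 for starts in both lists, 0.434 for starts in Early-B only and 0.220 for starts in neither. The Early-B-only starts of the ETS genes were poor in CpG too, with 0.0796 at Spib and 0.275 at the innermost Erg start. The outermost Erg start had a CpG ratio of 0.941 and lay inside no peak. The core GGAA was present in all 8 member windows, from 1 to 6 times, as it was in 95.7% of all windows. Neither GAGGAA, the core preferred by PU.1 and SPIB, nor CGGAAG, that of ETS1, was found in any of the 8, against 27.4% and 21.1% of windows. The core CCCNNGGG, the palindrome read by EBF1, was in 3 of the 8 windows, against 15.6%. It begins at bases 186 and 187 of the Spib window (overlapping copies), at bases 77 and 164 of the outer Elf1 window and at base 135 of the outermost Erg window. All motifs were sought on both strands. A match is a run of letters, not a bound site.

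The other 18 genes of the ETS family were mostly marked near their starts in both cell types. Of these, 12 had a start-site peak in both lists (against 54.1% of protein-coding genes) and 4 in neither (against 38.6%). Another 2 had one in Early-B cells only (against 5.14%). These 2 were Fev (−log10 p 2.30) and Elf3 (3.90), genes of serotonergic neurons and of epithelium, with weak peaks. The share of bases covered in either list that both lists covered had a median of 72.4% over the 12 genes covered in both, against 42.6% over the 7 members with a peak and 68.4% over all genes. The ratio of covered bases was highest at Etv1 (5335 bp in Early-B cells, 1927 bp in progenitors) and lowest at Elk3 (5316 bp in Early-B cells, 6447 bp in progenitors). More bases were covered in Early-B cells at 15 of the 16 with a peak, against 69.7% of all protein-coding genes with one. The 15 include Fev, Elf3, Elf5 and Spdef, which had no progenitor peak. Each of these had 1 weak Early-B peak, with −log10 p values from 1.77 to 4.25.

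Among 11 partner factors of the blood ETS proteins, 9 had a start-site peak in both lists (against 54.1% of genes) and 1 in neither (against 38.6%). The stem cell factor Lmo2 had one in progenitors only (−log10 p 5.44, against 2.15% of genes with a progenitor-only start-site peak). Lmo2 has no listed start, so this peak lies at a gene end, and its strongest peak had a −log10 p of 135 in Early-B cells and 215 in progenitors. The 1 Early-B peak at Lmo2 overlapped the progenitor list. More bases were covered in Early-B cells at 4 of the 10 with a peak, against 69.7% of all protein-coding genes with one. The ratio was highest at Irf8, a partner of PU.1 in B and myeloid cells, with 16270 bp in Early-B cells and 8988 bp in progenitors. It was lowest at Gata2, an antagonist of PU.1, with 1339 bp in Early-B cells and 2231 bp in progenitors. Among 10 known PU.1 targets, 6 had a start-site peak in both lists (against 54.1%) and 2 in neither (against 38.6%). Cd79a, which encodes a chain of the B cell receptor, had one in Early-B cells only (−log10 p 88.9, against 5.14% of genes). The integrin gene Itgam of myeloid cells had one in progenitors only (4.73, against 2.15%). Cd79a also had the highest ratio, with 12515 bp in Early-B cells and 5061 bp in progenitors. In its window the highest −log10 p was 136 in Early-B cells and 129 in progenitors. That progenitor peak overlapped the Early-B list and lay more than 1 kb from the listed start. Itgam had the lowest ratio, with 2678 bp in Early-B cells and 3091 bp in progenitors, none of them shared. More bases were covered in Early-B cells at 8 of the 9 targets with a peak, against the same 69.7%.

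The labelled identities were checked on marker genes, of which Cd79a, Flt3, Il7r, Csf3r and Csf1r also stand among the PU.1 targets. Of 9 B lineage markers, 7 had a start-site peak in Early-B cells only and 2 in both lists, and none lacked one. All 5 progenitor markers had one in both lists. Of 7 T lineage markers, 2 had one in both lists and 5 in neither. Of 6 myeloid markers, 1 had one in both, 1 in progenitors only and 4 in neither. Over all protein-coding genes, these classes held 54.1% (both), 5.14% (Early-B only), 2.15% (progenitors only) and 38.6% (neither). The Early-B list holds 48054 peaks, 33.2% of them with an authors' q above 0.05, and the progenitor list 31414, with 33.4%.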

How the data were processed

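H3K4me3 was profiled by chromatin immunoprecipitation in Early-B cells and Ebf1-null progenitors. The tools listed per the submitters' processing notes are MACS 1.4.3 and Bowtie 1.1.2, with mm10 and GRCh38 as builds whose use is not stated. A pileup and a q for each peak are columns of later MACS versions than the one named, so the program and settings behind the printed p and q are uncertain. The sources used here do not state whether replicates were pooled or input subtracted. Each list's group was read from its name. The pileup is a signal deposited by the authors, fold enrichment is the authors' ratio to a background, and the deposited columns whose header was damaged were taken, by position and range, to hold −log10 p, then −log10 q. These values are the authors' own, describe peaks within their list and measure no change between lists, so pileups set side by side carry no fold. No read counts were used, so depth and counting error are unknown.

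Peaks were joined to RefSeq gene spans and listed starts of GRCm38.p6, an assembly that shares its coordinates with mm10. Spi1, Ets1 and Fli1 had no listed start, and both gene ends were used for them. A peak was shared when it overlapped the other list by 1 bp. Bases covered were counted in the span plus 5 kb. Genes whose values are named are all members, and among other lists those with a private start-site class or the highest or lowest ratio of bases covered. Of each member, the peaks described singly are the start-site peak, the 2 of highest −log10 p elsewhere and the strongest private one per list. Other peaks were picked after their values were seen. The members and lists were chosen with earlier results of these data known. The steps returned the built-in class of all 4025 genes on simulated peaks. These were set at isolated genes and were identical in both lists where shared, so neighbouring genes and partial overlaps were not tried. The bases covered at 200 genes matched a count base by base. Python 3.11.15, numpy 2.4.6, pandas 2.3.3 and matplotlib 3.10.9 were used. Alternatives changed the threshold, window, overlap and measure of extent.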

Additional observations from a re-analysis of the deposited data

How the results depend on the processing

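A −log10 p threshold of 10 on each list left 18 Early-B and 12 progenitor peaks at the 8 genes, of which 7 and 1 were private, and 3 genes with a start-site peak in both lists (Fli1, Etv6 and Elf1). With an authors' FDR of at most 5%, 20 progenitor peaks were left, 4 of them private, and the start-site peak of Erg was in Early-B cells only. At equal list lengths 11 Early-B and 19 progenitor peaks were private, against 17 and 13 in the full lists, so that the larger number was then in progenitors. Fewer peaks pass these thresholds by construction. The other planned settings (gene span alone, span plus 10 kb, half-covered peaks, a search within 1 kb, start windows of 500 bp and 2.5 kb, and the width of the strongest peak) kept each count within 1.5 times its reported value. Genes with more bases covered in Early-B cells numbered 3 or 4 throughout. Under all 3 stricter thresholds Erg kept Early-B-only peaks, from 2 to 6 of them. The only further peak within 10 kb of a gene, a progenitor one past Elf1, had a −log10 p of 1.18. With 1 list per group no replicate could be left out. No paired analysis was possible because each group has a single list. Depth is unknown, so a missing peak does not show that the mark is absent.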
